A study of Mus musculus with 6 samples.

Results

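The genes of lipoprotein and cholesterol handling described here are 9 of the 54752 genes in the count tables, matched by symbol to their Ensembl identifiers: the apolipoproteins Apoe and Apoc1, the lipase gene Lpl, the cholesterol transporters Abca1 and Abcg1, the liver X receptors Nr1h2 and Nr1h3, the cholesterol esterifying enzyme gene Soat1 and the lipoprotein receptor gene Lrp1. The 6 libraries, 1 per mouse, were made from right hippocampus RNA of male C57BL/6 mice (C57BL/6 J in the methods) of WT genotype, aged 14 weeks by the labels. The 3 BCAS mice had a bilateral carotid artery stenosis, in which a microcoil is wound around each common carotid artery so that blood flow to the forebrain falls without a full block. The 3 sham mice were operated on alike but received no coil, and all tissue was taken 3 weeks after surgery. The narrower coil was on the right artery, the side that was sampled. Both groups were operated on under isoflurane anesthesia and were kept on standard chow.

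Cholesterol does not cross the blood-brain barrier, and brain cells make and recycle their own. Astrocytes and, when activated, microglia secrete apolipoprotein E, and the transporters ABCA1 and ABCG1 load it with cholesterol and phospholipid. Surplus cholesterol is converted to oxysterols, which bind the liver X receptors. With a retinoid X receptor as partner, these switch on Abca1, Abcg1, Apoe and other efflux genes. SOAT1 instead stores cholesterol as esters in lipid droplets, LPL releases fatty acids from lipoprotein triglycerides, and LRP1 takes up lipoproteins that carry apolipoprotein E.

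The total counts were 34301711 to 35607098 per sham library (median 34478313) and 29652456 to 31892083 per BCAS library (median 29959864). At these depths a library with 3 counts of a gene, taken as the limit of detection, corresponds to 0.0875 to 0.0995 CPM (counts scaled to a common library total), which covers counting error only. All CPM values here are scaled by edgeR's TMM factors. Neuronal markers such as Snap25 and glial markers such as Gfap and Mbp were high in each library. The 6 markers of choroid plexus, a tissue that adjoins the hippocampus, summed to 992, 4093 and 71.1 CPM in sham mice 1 to 3 and to 5944, 40.9 and 3229 CPM in BCAS mice 1 to 3. Sham mouse 3 and BCAS mouse 2 therefore stood far below the other libraries in this tissue, and the spread lay within both groups.

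All 9 genes passed the filter on low counts, and 8 of the 9 rose in BCAS mice by edgeR's quasi-likelihood test (adjusted P under 0.05, Benjamini-Hochberg over 18617 genes). Of all tested genes, 31.3% passed this test, 18.0% rising and 13.2% falling. With 1 mouse left out, 3782 to 6646 genes passed, against 5819 with all mice. The genes that rose then numbered 2453 to 3554, against 3356, and those that fell 1260 to 3092, against 2463. Of the 9, 4 genes (Apoc1, Abca1, Apoe and Lpl) were also up-regulated DEGs, with a log2 fold change above 1, whereas 9.46% of all tested genes were DEGs and 8.47% were up-regulated ones. None of the 9 fell. Nr1h3 did not pass the test. The median log2 fold change was 0.99 for the 9 genes and 0.02 for the other tested genes. In 8 genes the lowest BCAS mouse lay above the highest sham mouse, which was so for 25.3% of all tested genes, while the reverse held for 22.7%. BCAS mouse 3 had the highest level of 6 genes and BCAS mouse 2 that of the other 3, while BCAS mouse 1 was the lowest of the BCAS mice for 6. In a bulk tissue, more cells of a type and more RNA per cell cannot be told apart.

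**Figure D1:**
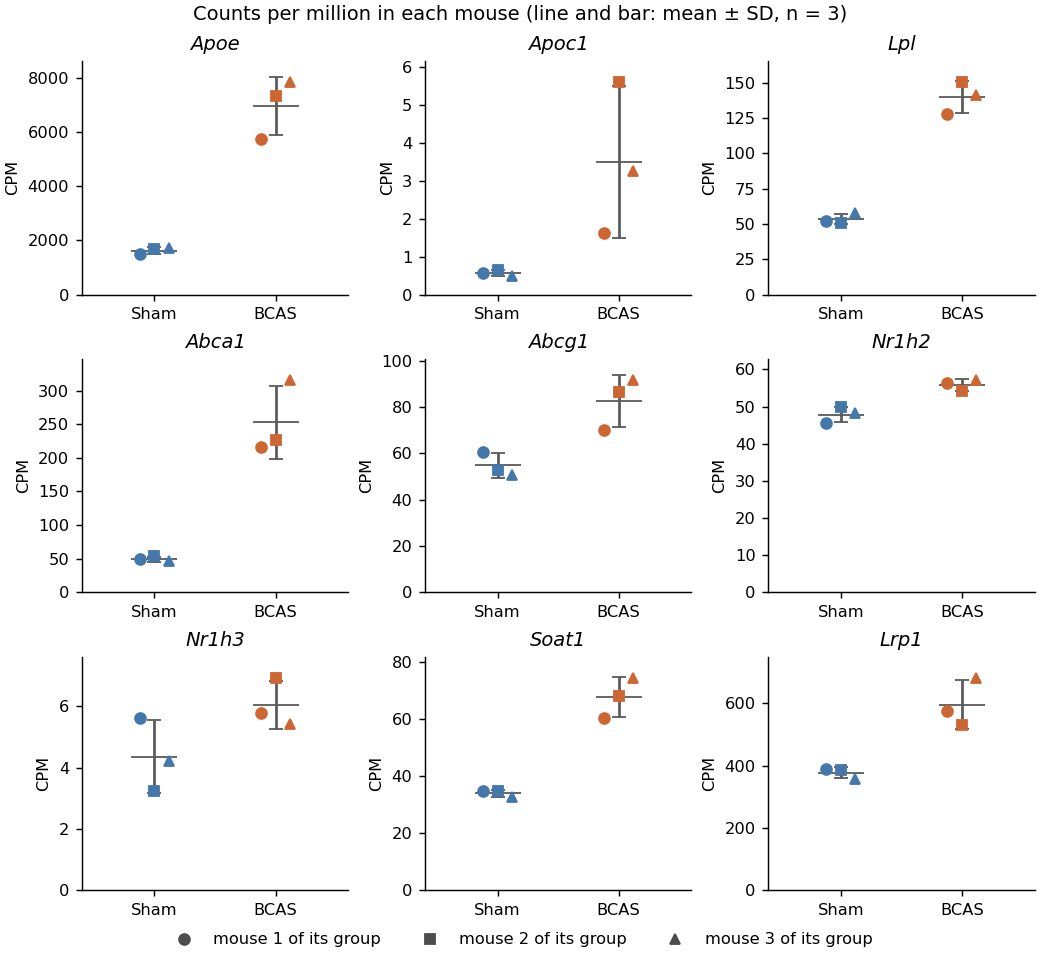
Each panel plots the CPM (vertical axis, from 0) of 1 gene in the 3 sham and 3 BCAS mice, with the mouse number as symbol, the line as the mean and the bar as SD. The groups separate in all panels but that of Nr1h3, where BCAS mouse 3 at 5.42 CPM lies below sham mouse 1 at 5.61 CPM.

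Apoe (ENSMUSG00000002985.16, mm10 chr7:19696109-19699188, minus strand) encodes the main lipoprotein component made in the brain. Its level was 1479, 1692 and 1703 CPM in sham mice 1 to 3 and 5759, 7314 and 7835 CPM in BCAS mice 1 to 3. Every BCAS mouse was far above every sham mouse. On average it rose from 1625 ± 126 CPM to 6969.6 ± 1080.3 CPM (SD, n = 3 per group). This gave a log2 fold change of 2.10 with a standard error of 0.18 (adjusted P = 6.33e-05, edgeR; 95% confidence interval 1.70 to 2.50). As a share of all counts of a library, Apoe took 0.145%, 0.165% and 0.164% in sham mice and 0.587%, 0.736% and 0.824% in BCAS mice. It was the 35th, 30th and 30th most counted gene in sham mice 1 to 3, and the 4th, 3rd and 2nd in BCAS mice 1 to 3. Leaving out any 1 mouse gave log2 fold changes of 2.0 to 2.22.

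Apoc1 (ENSMUSG00000040564.14, chr7:19689481-19692660, minus strand) lies 3448 bases from Apoe and encodes a small apolipoprotein that slows lipoprotein uptake and lipase action. It was a low gene, counted 19, 22 and 17 times in sham mice and 53, 169 and 102 times in BCAS mice. The means were 0.572 ± 0.0820 and 3.501 ± 1.996 CPM (SD, n = 3). The BCAS mice were all above the sham mice but spread widely among themselves, with a coefficient of variation of 57.0% against 15.5% for Apoe. Its log2 fold change was 2.61 with a standard error of 0.45 (adjusted P = 0.00309, edgeR). It was 1.99 when the mice with the fewest choroid plexus counts, sham mouse 3 and BCAS mouse 2, were left out, a choice made after seeing the data (adjusted P = 0.0256).

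Lpl (ENSMUSG00000015568.16, chr8:68880491-68907448, plus strand) had the narrowest interval of the 4 up-regulated DEGs. Its level was 52.0, 50.8 and 57.6 CPM in sham mice and 128.1, 150.2 and 141.3 CPM in BCAS mice. The groups were far apart, and each group was tight, with coefficients of variation of 6.81% and 7.96%. Its log2 fold change was 1.39 with a standard error of 0.09 (adjusted P = 2.02e-05, edgeR).

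The 2 transporter genes both rose, but not by the same amount. Abca1 (ENSMUSG00000015243.4, chr4:53030787-53159895, minus strand) encodes the transporter that lipidates apolipoproteins with little lipid. Its level was 49.3, 53.3 and 45.9 CPM in sham mice and 217, 226 and 316 CPM in BCAS mice, so BCAS mouse 3 stood above the other BCAS mice. The means were 49.5 ± 3.74 and 253 ± 54.6 CPM (SD, n = 3), and the log2 fold change was 2.35 with a standard error of 0.15 (adjusted P = 2.02e-05, edgeR). Abcg1 (ENSMUSG00000024030.6, chr17:31057698-31115777, plus strand) encodes the transporter that adds cholesterol to particles already formed. It had 60.6, 52.9 and 50.7 CPM in sham mice and 70.2, 86.6 and 91.6 CPM in BCAS mice. All BCAS mice were above all sham mice, with BCAS mouse 1 nearest to the sham mice. The log2 fold change of Abcg1 was 0.60 with a standard error of 0.11 (adjusted P = 0.00474, edgeR). Without sham mouse 3 and BCAS mouse 2 it was 0.50 and no longer passed (adjusted P = 0.0506).

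Within each mouse, the log2 ratio of Abca1 to Abcg1 counts was -0.30, 0.01 and -0.15 in sham mice and 1.63, 1.39 and 1.79 in BCAS mice. The groups did not overlap, and the mean difference was 1.74 with a standard error of 0.15. The exact two-sided permutation test gave P = 0.1, the smallest that 3 against 3 mice allow, and 0.167 after adjustment over the 5 ratios computed.

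Abca1 is the gene among the 9 whose transcription start is best known for a liver X receptor response, through a spaced repeat called DR4. The sequence before its start, from RefSeq on GRCm38.p6, is shown because Abca1 had the closest DR4 match of the 6 genes with a window. Windows of 300 bases, 250 before and 50 after a start, were given for 6 of the 9 genes, namely Apoe, Abca1, Nr1h2, Nr1h3, Soat1 and Lrp1. Searched on both strands for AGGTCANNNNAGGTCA, the window of Abca1 held no exact match, and its closest stretch missed 3 of the 12 fixed letters, beginning 67 bases before the start. The 250 bases before the start, chr4:53159896-53160145 on the minus strand, are written 5′ to 3′ with this stretch in capitals.
Abca1: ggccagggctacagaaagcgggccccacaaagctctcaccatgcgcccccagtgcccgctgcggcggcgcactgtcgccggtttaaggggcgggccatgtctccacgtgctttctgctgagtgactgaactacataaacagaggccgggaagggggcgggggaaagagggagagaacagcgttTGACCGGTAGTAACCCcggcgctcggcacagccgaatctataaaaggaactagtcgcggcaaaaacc

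A stretch with at most 3 missed letters was found in 21.9% of the 32851 mouse windows of that length, and an exact match in 0.0152%. The window of Abca1 also held 1 CACGTG, present in 7.15% of windows, and 2 GGGCGG, present in 35.7%. The closest stretch missed 4 letters in the windows of Apoe, Nr1h2, Nr1h3 and Soat1 and 5 letters in that of Lrp1, and 76.9% of all windows held a stretch with at most 4 missed letters. In the window at the Apoe start used in the files, the closest 16 bases were TGCCCTGCTGTGAAGG. No window of these 6 genes held the single repeat unit AGGTCA, which 16.3% of windows did. These matches describe letters within short windows only.

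Of the liver X receptor genes, Nr1h2 passed the test with a small difference and Nr1h3 did not pass. Nr1h2 (ENSMUSG00000060601.13, chr7:44549616-44553951, minus strand) encodes LXR-beta, the form found in most cells. It had 45.5, 49.8 and 48.3 CPM in sham mice and 56.4, 54.1 and 57.1 CPM in BCAS mice. The groups did not overlap but the gap was small, and the log2 fold change was 0.22 with a standard error of 0.07 (adjusted P = 0.0428, edgeR). This call was lost without sham mouse 1, 2 or 3 (adjusted P = 0.15, 0.0901 and 0.112), without BCAS mouse 1 or 3 (0.107 and 0.0938) and with DESeq2 (0.0981), and it was kept without BCAS mouse 2 (0.0497).

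Nr1h3 (ENSMUSG00000002108.10, chr2:91184061-91202834, minus strand) encodes LXR-alpha, the form known for macrophages and liver. Its counts were 190, 108 and 145 in sham mice and 188, 209 and 169 in BCAS mice, and the groups overlapped. The means were 4.36 ± 1.19 and 6.04 ± 0.788 CPM (SD, n = 3), with a log2 fold change of 0.47 (95% confidence interval -0.03 to 0.98, adjusted P = 0.142, edgeR), so neither no change nor a rise close to 1 on the log2 scale lay outside the interval. It shares 34 exon bases with Gm13783, which had 0 to 3 counts per library. The log2 ratio of Nr1h3 to Nr1h2 was -3.02, -3.94 and -3.51 in sham mice and -3.28, -2.96 and -3.40 in BCAS mice, with overlapping groups (difference 0.28, standard error 0.30, exact permutation P = 0.4, 0.5 adjusted). The difference was 0.51 without sham mouse 1 and 0.05 without sham mouse 2.

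Soat1 (ENSMUSG00000026600.12, chr1:156424525-156474331, minus strand) fell just short of the fold threshold for a DEG. Its level was 34.8, 34.6 and 32.7 CPM in sham mice and 60.5, 68.0 and 74.4 CPM in BCAS mice, with no overlap. The log2 fold change was 0.99 with a standard error of 0.09 (adjusted P = 1.07e-04, edgeR), and it passed the threshold when scaled by library totals alone (1.07), without BCAS mouse 1 (1.06) and, narrowly, without sham mouse 1 or sham mouse 2. The log2 ratio of Soat1 to Abca1 was -0.50, -0.62 and -0.49 in sham mice and -1.84, -1.73 and -2.08 in BCAS mice. Esterification and efflux are alternative fates of cholesterol, and the transcript ratio of these genes was lower in every BCAS mouse than in any sham mouse (difference -1.35, standard error 0.11, exact permutation P = 0.1, 0.167 adjusted).

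Lrp1 (ENSMUSG00000040249.15, chr10:127538161-127621148, minus strand) had 389, 387 and 357 CPM in sham mice and 577, 531 and 682 CPM in BCAS mice. Every BCAS mouse was above every sham mouse. Its log2 fold change was 0.66 with a standard error of 0.11 (adjusted P = 0.00253, edgeR).

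The other 2 ratios set genes against Apoe. The log2 ratio of Lpl to Apoe was -4.83, -5.06 and -4.89 in sham mice and -5.49, -5.61 and -5.79 in BCAS mice. It was lower in every BCAS mouse (difference -0.71, standard error 0.11, exact permutation P = 0.1, 0.167 adjusted), so the rise of Lpl was the smaller in these libraries. The log2 ratio of Apoc1 to Apoe overlapped between groups, with -11.33, -11.29 and -11.71 in sham mice and -11.77, -10.35 and -11.22 in BCAS mice. Its difference of 0.33 had a standard error of 0.44 (exact permutation P = 0.5, 0.5 adjusted), and it was -0.05 without BCAS mouse 2.

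**Figure D2:**
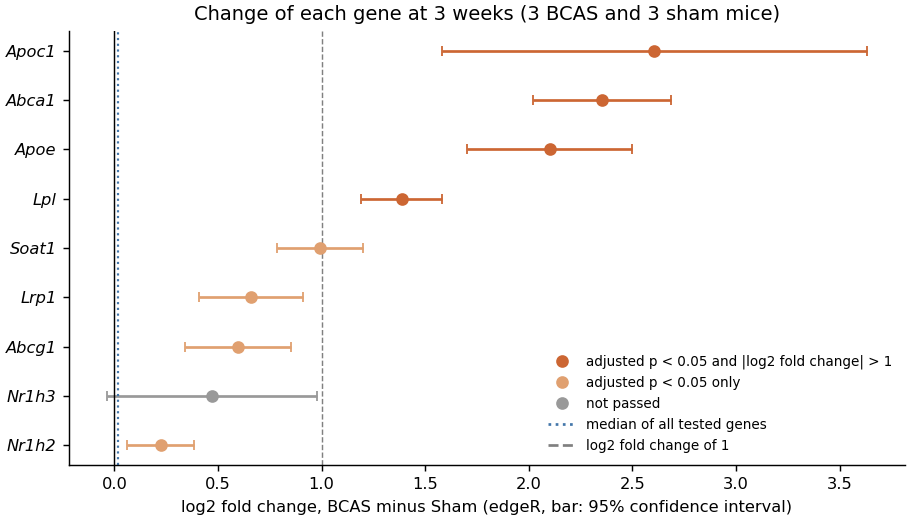
The log2 fold change of each gene, BCAS minus sham (horizontal axis), is drawn as a point with its 95% confidence interval derived from the edgeR test, coloured by the call. The intervals of Apoc1, Abca1, Apoe and Lpl lie wholly above 1, that of Soat1 spans 1, and that of Nr1h3 spans 0.

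To compare levels between genes, CPM were divided by exon length to give RPKM. In sham mice Apoe stood at 759.9 ± 59.1 RPKM (SD, n = 3), followed by Lrp1 at 21.3, Nr1h2 at 14.3, Abcg1 at 13.5, Lpl at 5.10, Abca1 at 4.78, Soat1 at 3.48, Nr1h3 at 1.73 and Apoc1 at 0.768 RPKM. The ranges over mice of Nr1h2 and Abcg1 overlapped, as did those of Lpl and Abca1, and the other neighbours in this order were separate. In BCAS mice the mean levels were 3260 for Apoe, 33.7 for Lrp1, 24.4 for Abca1, 20.4 for Abcg1, 16.7 for Nr1h2, 13.4 for Lpl, 6.91 for Soat1, 4.71 for Apoc1 and 2.40 RPKM for Nr1h3. Abca1 thus ranked 6th in sham mice and 3rd in BCAS mice, where its range overlapped those of both neighbours, and Apoc1 ranked 9th and 8th, with a range in BCAS mice that overlapped those of Soat1 and Nr1h3. The mean level of Apoe per length was 35.6 times that of Lrp1 in sham mice and 96.8 times in BCAS mice.

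**Figure D3:**
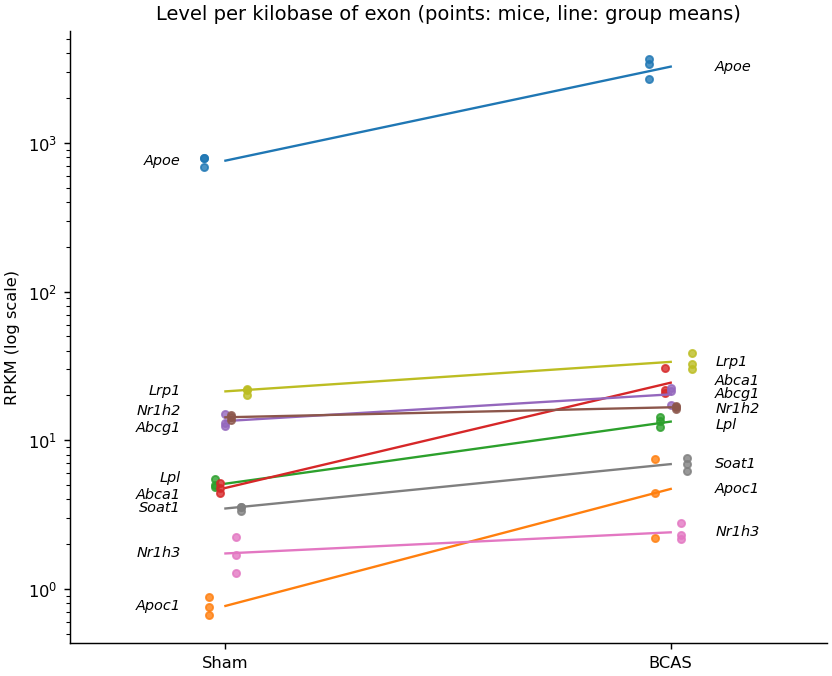
RPKM on a log axis is plotted for each mouse as a point, shifted sideways by gene, with a line from the sham mean to the BCAS mean. Apoe lies far above the other 8 genes in both groups, and the line of Abca1 crosses those of Abcg1, Nr1h2 and Lpl.

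Markers of several cell types also differed between the groups. All 15 microglia markers rose, and their summed level was 448 to 468 CPM in sham mice and 3091 to 5024 CPM in BCAS mice. Of 10 astrocyte markers 9 rose, with a sum of 4578 to 4849 CPM in sham mice and 9694 to 10220 CPM in BCAS mice. The astrocyte marker Gfap rose by 3.29 on the log2 scale, from 375 to 3678 CPM, against a median of 0.74 for its list, and the microglia markers ranged from 1.54 for P2ry12 to 4.33 for Trem2. Of 11 neuron markers 9 fell, with a sum of 11680 to 12360 CPM in sham mice and 6259 to 8987 CPM in BCAS mice. BCAS mouse 3, which had the most Apoe and Abca1, also had the highest microglia and the lowest neuron sum. None of 7 oligodendrocyte and none of 6 choroid plexus markers passed the test, with oligodendrocyte sums of 5217 to 6395 and 5964 to 9010 CPM. Of 6 endothelial markers 4 rose, with sums of 245 to 269.6 CPM in sham mice and 331 to 365 CPM in BCAS mice.

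Markers of cells from blood or meninges were also summed. A list of myeloid cells other than microglia, which holds markers of resident border macrophages (Mrc1, Cd163, Lyve1 and Pf4) as well as of monocytes and neutrophils, summed to 8.26 to 12.1 CPM in sham mice and 21.4 to 32.5 CPM in BCAS mice (4 of 7 tested rose). The border macrophage markers made up most of both sums, with Mrc1 at 5.17 and 12.7 CPM the highest, and Mrc1 and Cd163 rose by 1.3 and 1.1 on the log2 scale. The monocyte marker Ccr2 rose by 3.11, Ly6c2 was counted 0, 1 and 0 times in sham mice and 39, 74 and 71 times in BCAS mice, the neutrophil marker S100a9 did not pass at 1.25, and Ly6g had 0 counts in all 6 libraries. Lymphocyte markers summed to 0.649 to 1.26 and 6.33 to 7.34 CPM (5 of 6 tested rose). Fibroblast markers summed to 147 to 242 and 242.5 to 381 CPM (3 of 6 rose, among them Col1a1 by 2.13 and Col1a2 by 1.52), close to the endothelial sums. The blood markers summed to 85.7 to 102 and 106 to 178 CPM, and none of the 5 passed.

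Set against the microglia sum, the log2 ratio of each gene other than Apoc1 was lower in every BCAS mouse than in any sham mouse. The difference was -0.69 for Abca1, -0.93 for Apoe, -1.64 for Lpl, -2.04 for Soat1, -2.37 for Lrp1, -2.43 for Abcg1, -2.52 for Nr1h3 and -2.80 for Nr1h2. For Apoc1 it was -0.57, with overlapping groups. Set against the astrocyte sum, Apoc1, Abca1 and Apoe were higher in every BCAS mouse than in any sham mouse, with differences of 1.36, 1.25 and 1.01. Abcg1, Lrp1 and Nr1h2 were lower in every BCAS mouse, with differences of -0.495, -0.43 and -0.86. The groups overlapped for Lpl at 0.30, Soat1 at -0.10 and Nr1h3 at -0.585. These values depended on Gfap, without which the other 9 astrocyte markers summed to 4232 to 4422 CPM in sham mice and 6244 to 6296 CPM in BCAS mice, a sum added after seeing the data. Against it Abcg1 and Lrp1 were no longer lower but overlapped at 0.05 and 0.11, as did Nr1h3 at -0.04, while Nr1h2 stayed lower in every BCAS mouse at -0.32. Lpl and Soat1 were then higher in every BCAS mouse, at 0.85 and 0.45, as were Apoc1, Abca1 and Apoe at 1.91, 1.79 and 1.55. The largest part of this sum was Slc1a2, at 2310 CPM in sham mice and 3070 CPM in BCAS mice, with a log2 fold change of 0.41. The log2 fold changes of the 9 markers in it ranged from 0.26 for Aldoc to 1.67 for Aqp4, so these values also depend on how markers are weighted. The part of changed cell numbers in the transcripts of the 9 genes was not tested.

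**Figure D4:**
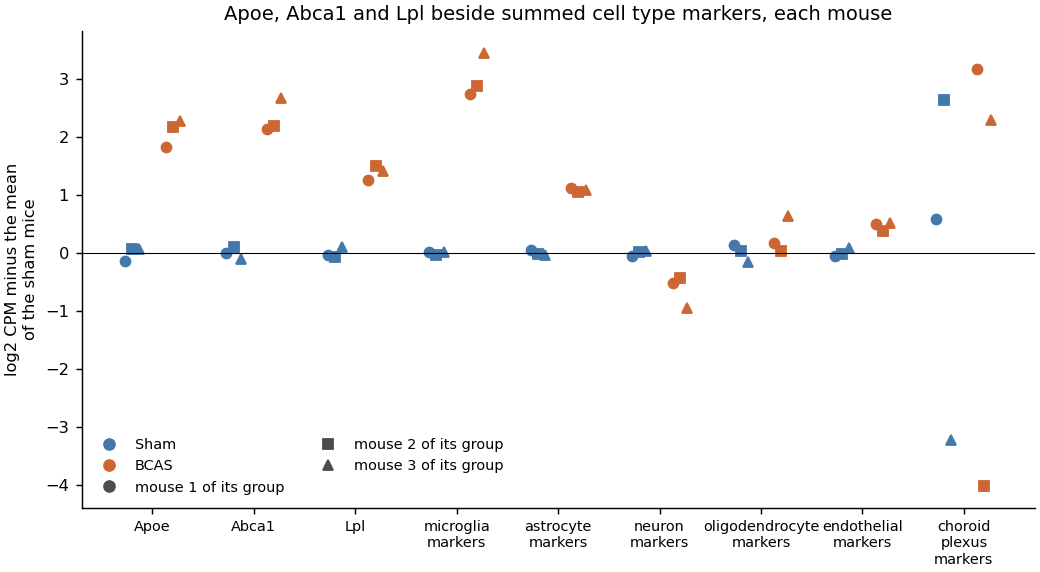
The log2 CPM of Apoe, Abca1 and Lpl and of summed marker lists (horizontal axis) is plotted for each mouse relative to the mean of the sham mice, by group colour and mouse symbol. Apoe and Abca1 rise by more than the astrocyte sum and by less than the microglia sum in each BCAS mouse, and the choroid plexus markers scatter within both groups.

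Around these 9 genes, 137 further lipid genes in 10 lists were looked up, of which 119 could be tested. Of these 37 rose (31.1%, against 18.0% of all tested genes) and 29 fell (24.4%, against 13.2%). In this set 18 genes were up-regulated DEGs (15.1%, against 8.47%) and 2 were down-regulated DEGs (1.68%, against 0.999% of all tested genes), and the median log2 fold change was 0.08. Without BCAS mouse 3 the up-regulated DEGs numbered 10, and the down-regulated DEGs numbered 1 without sham mouse 1 or sham mouse 2.

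Of 5 tested apolipoprotein genes 2 rose. Clu, whose product clusterin is the other abundant brain apolipoprotein, rose from 891 ± 56.2 to 1972 ± 157 CPM (SD, n = 3; log2 fold change 1.15, adjusted P = 1.95e-04, edgeR). Apod, known in glia and in myelin, rose with a log2 fold change of 1.38 (adjusted P = 0.00421). Apoa2 and Apoh were below 1 CPM in both groups, with log2 fold changes of 0.17 and -0.22 that did not pass.

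Among the 13 other genes of the lipoprotein receptor family 3 rose and 5 fell (median -0.17). Lrp5, a Wnt co-receptor, rose from 14.6 ± 1.62 to 30.5 ± 7.09 CPM (SD, n = 3; log2 fold change 1.07, adjusted P = 0.00231, edgeR). Lrp11 and Sorl1, a sorting receptor for the amyloid precursor, fell by 0.66 and 0.43 on the log2 scale (adjusted P = 0.00309 and 0.012, edgeR). Of 8 adaptors, chaperones and regulators of these receptors 3 rose and 1 fell. The adaptor gene Dab2 rose by 1.39, and Mylip, which encodes a ubiquitin ligase, by 1.0. The reelin pathway adaptor Dab1 fell by 0.47, and the chaperone gene Lrpap1, at 0.13, did not pass.

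Of 15 tested ABCA and ABCG transporter genes 4 rose and none fell (median 0.14). Abca9 rose from 12 ± 1.25 to 43.8 ± 4.31 CPM (SD, n = 3; log2 fold change 1.87, adjusted P = 2.03e-05, edgeR). Abca13 was counted 2, 4 and 0 times in sham mice and 15, 12 and 25 times in BCAS mice, close to the limit of detection (adjusted P = 0.0135, edgeR). Abca2, the myelin-associated transporter, and Abcg4, the neuronal relative of Abcg1, gave 0.14 and -0.29 and did not pass.

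Of 10 further genes listed as liver X receptor targets 6 rose and none fell (median 0.57). Myo1e rose by 2.09 and Srebf1, which encodes the lipogenic factor SREBP-1, by 1.05 on the log2 scale (adjusted P = 4.17e-05 and 7.67e-05, edgeR), beside Mylip. The lipogenic genes Scd2 and Fasn, at 0.12 and -0.12, did not pass. Of 12 tested receptor partners and cofactors 4 rose and 1 fell. Ppara, at 0.986 and 2.12 CPM, rose by 1.1 (adjusted P = 0.0269, edgeR), and the corepressor gene Ncor1, at -0.18, did not pass. Of 8 tested relatives and regulators of LPL 2 rose and none fell. Lmf2, a maturation factor gene, rose by 0.84 (adjusted P = 9.36e-04, edgeR), and Sel1l, which acts in LPL folding, did not pass at -0.16.

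Genes of cholesterol esters, the lysosome and oxysterols rose in 8 of 12 tested cases and fell in 2 (median 0.51). Ch25h, which encodes cholesterol 25-hydroxylase, was counted 11, 18 and 22 times in sham mice and 350, 465 and 839 times in BCAS mice. Its log2 fold change of 5.13 (standard error 0.41, adjusted P = 4.93e-05, edgeR) was the highest of the 119 tested genes. Npc2 and Lipa, whose products handle cholesterol in the lysosome, rose by 2.08 and 1.19. Soat2, the paralog of Soat1, was counted 4, 1 and 12 times in sham mice and 45, 39 and 61 times in BCAS mice (adjusted P = 0.00508, edgeR). The esterase gene Nceh1 fell by 0.35, and the neuronal 24-hydroxylase gene Cyp46a1, at -0.11, did not pass.

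Cholesterol synthesis genes went the other way, as 18 of 24 fell in BCAS mice and 1 rose (median -0.55). Of the 11 neuron markers 9 also fell, and their list had a median of -0.61. The part of changed cell numbers in the fall of the cholesterol synthesis genes was not tested. Hmgcs1, an early enzyme gene of the pathway, fell from 232 ± 9.90 to 124 ± 16.5 CPM (SD, n = 3; log2 fold change -0.90, adjusted P = 3.05e-04, edgeR). Srebf2, which encodes the factor that switches on the pathway, fell by 0.41 (adjusted P = 0.00368, edgeR). Fdps passed the fold threshold at -1.19 but had a mean of only 1.07 CPM in sham mice, and it shares 26.7% of its exon bases with Gm43738, so its count is uncertain.

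Of 14 tested lipid droplet genes 5 rose and 2 fell (median 0.33). Plin2, which coats the droplets, rose from 5.78 ± 0.9 to 25.4 ± 8.04 CPM (SD, n = 3; log2 fold change 2.13, adjusted P = 2.5e-04, edgeR), and Plin4 rose by 1.18 (adjusted P = 0.0153). Dgat2, of triglyceride synthesis, fell by 0.45, and the lipase gene Mgll, at 0.07, did not pass.

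**Figure D5:**
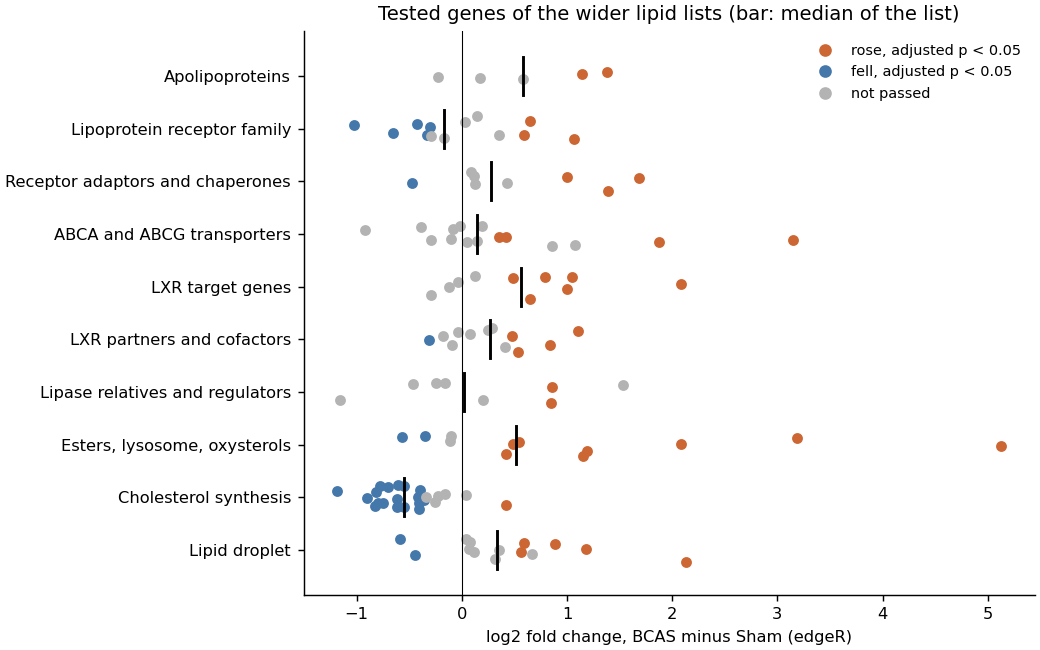
Each point is a tested gene of 1 of 10 lipid lists (vertical axis) at its log2 fold change, BCAS minus sham, coloured by the test, with the list's median as a bar. The cholesterol synthesis list lies mostly below 0 with a median of -0.55, while Ch25h at 5.13 is the point farthest to the right.

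Of the 9 genes looked up beside Apoe and Apoc1 on chromosome 7, 6 could be tested, and 4 rose. Tomm40 and Clptm1, near neighbours with many counts, gave log2 fold changes of -0.34 and -0.06 and did not pass (adjusted P = 0.0831 and 0.539, edgeR). Apoc4, of the same apolipoprotein cluster, had 0 counts in each sham mouse but 7, 28 and 15 in BCAS mice 1 to 3, too few for the filter. BCAS mouse 2 was the highest for both Apoc4 and Apoc1. Apoc2 had 0 counts in every library, and 79.5% of its exon bases are shared with Gm44805, on which reads were not counted for either gene. Bcl3, an NF-kappa B regulator, rose by 3.88, Nectin2 by 0.81, Relb by 0.71 and Bcam by 0.53, the last with overlapping groups (adjusted P = 4.86e-05, 0.0254, 0.0293 and 0.0343, edgeR). Cblc had at most 13 counts per library and was not tested.

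The genes whose profile over the 6 libraries was most like that of Apoe were Kcne1l, Il13ra1, Srgn, Ctsl and P2ry6. Likeness was measured among 15630 genes as the Euclidean distance of log2 CPM centred on each gene's sham mean, and these 5 had distances of 0.226, 0.288, 0.295, 0.3 and 0.31. Their log2 fold changes, which the choice by this distance makes similar, were 2.17, 2.02, 1.98, 2.15 and 2.28, beside 2.10 for Apoe. Ctsl, a lysosomal protease gene, was the most abundant of them by CPM, at 82.3 in sham mice and 366 in BCAS mice. None of the other 8 lipid genes was among these 5.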

How the data were processed

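The right hippocampus of 3 sham and 3 BCAS mice was profiled by RNA-seq, with 1 library per separate mouse. Mice are numbered 1 to 3 by the labels, while the columns inside the BCAS files carry the numbers 2 to 4. By the submitters' processing notes and the methods, the authors trimmed the reads with Trim Galore, aligned them to mm10 with HISAT2 and assigned them to genes with featureCounts. The raw counts deposited by the authors are whole reads per gene, without normalization. Per the file headers, featureCounts 2.0.3 and GENCODE vM20 were used, whereas the notes name version 1.6.3. The headers also show that mates were counted as separate reads, that strand was ignored, and that reads mapping to several places or shared by genes were left out. The exon length of each gene, another column deposited by the authors, was used for RPKM. Of 54752 genes, 54723 were matched to a symbol.

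The 9 genes, the lists and the tests were chosen with earlier results of these data known. Genes passing filterByExpr were normalized by TMM and compared with edgeR 4.0.16 (quasi-likelihood test, Benjamini-Hochberg adjustment over all 18617) in R 4.3.3. A DEG had an adjusted P below 0.05 together with a log2 fold change beyond 1 in either direction. Log2 CPM used a prior count of 2, and within-mouse ratios of counts added 0.5 to each. Levels at or below 3 counts were taken as the detection limit. All 9 genes are named. From each lipid list the named genes are the DEGs, or the 4 with the largest change, and the 2 with the highest mean CPM among the rest. All 9 neighbours of Apoe and the 5 genes most like it, with a mean of at least 1 CPM, are also named, except that some genes chosen by this rule are not reported here. Alternatives were DESeq2 1.42.0, limma-voom (limma 3.58.1), RLE factors, library totals, other filters, glmTreat, a replicate block and leaving out each mouse. Leaving out the mouse with the fewest choroid plexus counts of each group was added after seeing the data. The steps were tested on simulated data.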

Additional observations from a re-analysis of the deposited data

How the results depend on the processing

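Apoe, Apoc1, Lpl and Abca1 kept their direction and stayed DEGs in all 15 alternatives, with log2 fold changes of 2.0 to 2.22, 1.99 to 2.95, 1.32 to 1.46 and 2.16 to 2.45. Nr1h3 passed in none of them (0.295 to 0.692). The count of DEGs over all genes was 818 with glmTreat, which tests against a log2 fold change of 1, and 1306 to 1976 with a mouse left out, against 1762. With glmTreat, 4 of the 9 genes passed, and Abcg1 (0.596), Soat1 (0.991), Lrp1 (0.659) and Nr1h2 (0.223) did not (adjusted P = 1, edgeR). In the wider lists it left 6 genes that rose and 0 that fell, with 6 DEGs up and 0 down. Nr1h2 also failed with DESeq2 (0.205, adjusted P = 0.0981), RLE factors (0.209, 0.0514), no filter (0.218, 0.126) and the replicate block (0.224, 0.097), and it ranged from 0.185 to 0.25 with a mouse left out. Without the mice with the fewest choroid plexus counts, Abcg1 was 0.498 (adjusted P = 0.0506) and Nr1h2 0.237 (0.101). Wider lipid DEGs numbered 10 to 19 up and 1 to 3 down with a mouse left out, and 1 down with library totals or the replicate block. The ratio of Apoc1 to Apoe ranged from -0.0533, without BCAS mouse 2, to 0.66 with a mouse left out. The order of levels in sham mice changed without sham mouse 3, and 6 to 7 pairs of neighbours were then separate over the mice left out. By the numbers of the labels the mice did not deviate together in pairs (correlations of 0.036, -0.314 and -0.158). The columns inside the BCAS files are numbered 2 to 4 instead of 1 to 3, and by that numbering sham mouse 2 with BCAS mouse 1 and sham mouse 3 with BCAS mouse 2 gave 0.223 and 0.347. In summed choroid plexus markers, sham mouse 2 and BCAS mouse 1 were the highest of their groups (4093 and 5944 CPM). Sham mouse 3 and BCAS mouse 2 were the lowest (71.1 and 40.9 CPM). The part of this tissue in the correlations was not tested. The replicate block, by the labels, gave 1595 DEGs and changed no other call among the 9 genes. Library totals moved the median log2 fold change of all genes from 0.02 to 0.09 and the share of DEGs that were up from 89.4% to 92.7%. Low counts limit Apoc1, Nr1h3, Abca13, Soat2 and Apoc4, and with 3 mice per group the exact tests of ratios could not go below P = 0.1. Apart from the fewer mice or the stricter null hypothesis of an alternative, the cause of these differences was not tested.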
